A study of Caenorhabditis elegans with 4 samples.

Results

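The 415 peaks of DPY-30 on the X chromosome were described, of 2103 peaks in the list deposited for the series as a whole. They were chosen by chromosome alone, so their score, width, spacing and presence in the single ChIP libraries played no part in the choice. The series located DPY-30 on chromatin with ChIP-seq, the sequencing of DNA recovered with an antibody. The material was mixed embryos of Caenorhabditis elegans strain N2, genotype wild type, a population of males and hermaphrodites at 20 °C. It comprised 2 ChIP libraries, made with a polyclonal rabbit antibody (SDQ3499), and 2 input libraries. A peak list belonged to each ChIP library, here replicate 1 (206 X peaks) and replicate 2 (148 X peaks), beside the series-level list. Files of the inputs were not analysed here. In whole embryos, binding in few nuclei and weak binding in many cannot be told apart.

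DPY-30 belongs to the dosage compensation complex, which in hermaphrodites binds both copies of X and turns their transcription down, to match the single X of males. The complex loads at strong recruitment sites, where DPY-30 acts with the SDC proteins, and spreads from there to weaker sites, many of them promoters of active genes. DPY-30 also sits in the COMPASS histone H3 methyltransferases, which act at promoters genome-wide, so a DPY-30 peak on X does not by itself show which complex was bound. Peaks are named by position in WormBase WS220 coordinates, because an annotation or genome of that build was not used here, and for the same reason no sequence is shown.

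Most X peaks were weak, narrow and supported by few libraries, beneath a small group of very strong ones. Autosomal peaks were weaker and narrower still at the median. Scores are those the authors gave each peak and can be compared only within a list. The series-level scores of X spanned 1.31 to 237, with 25% of peaks below 4.52 and 25% above 12.2. On the autosomes these limits were 3.75 and 9.415, and the median was 5.48 against 6.49 on X. Widths on X ran from 146 to 7934 bp, with a median of 290 bp against 254 bp on the autosomes. Narrower than 200 bp were 110 of the 415 X peaks and 537 of the 1686 autosomal peaks. A peak was called found in a replicate when it overlapped a peak of that replicate's list by at least 1 bp. Of the 415 X peaks, 96 were found in both replicates, 82 in replicate 1 alone, 36 in replicate 2 alone and 201 in neither. For comparison, 18.1% of all 2101 nuclear peaks were found in both, 17.7% in replicate 1 alone, 15.1% in replicate 2 alone and 49.1% in neither, where the X shares were 23.1%, 19.8%, 8.67% and 48.4%.

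**Figure D1:**
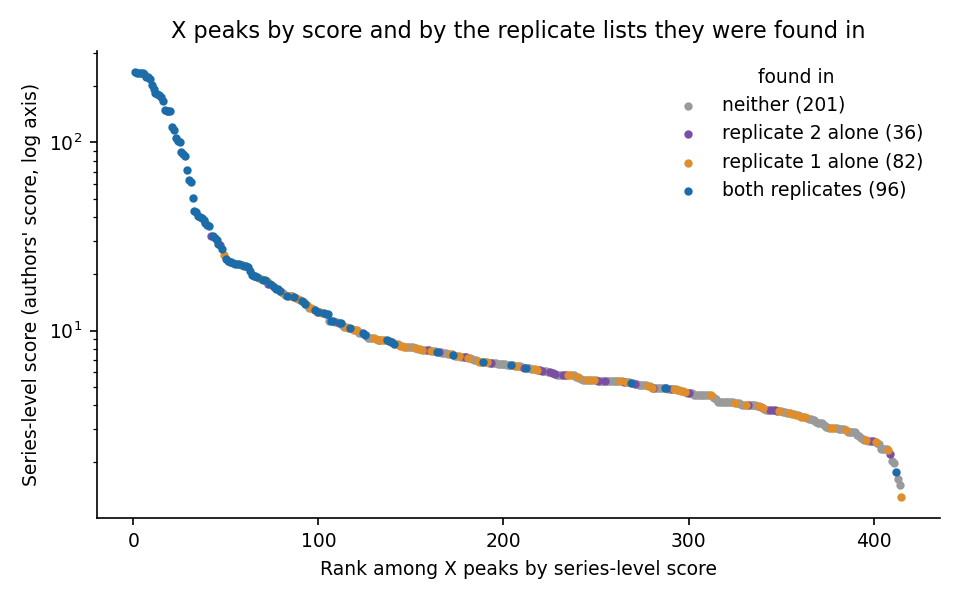
Series-level score (log axis) of each of the 415 X peaks against its rank on X, each point 1 peak, coloured by the replicate lists it was found in. The 41 highest ranks are all found in both replicates, and the 201 peaks found in neither score at most 15.9.

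Support climbed steeply with score on X and on the autosomes. All 32 X peaks with a series-level score of at least 50 were found in both replicates, as were all 3 autosomal peaks of such scores, and the median width of the 32 was 709 bp. Of the 31 X peaks scoring from 20 up to 50, 26 were found in both (83.9%, exact 95% interval 66.3 to 94.5%) and the other 5 in 1 replicate, where the autosomal share in both was 81.8%. From 10 up to 20 the count in both was 24 of 58 (41.4%, 28.6 to 55.1%) beside 38.9% of autosomal peaks. In this range 21 X peaks were in replicate 1 alone and 3 in replicate 2 alone, beside 64 and 55 of 262 autosomal peaks. From 5 up to 10 the count in both was 11 of 158 (6.96%, 3.53 to 12.1%) beside 10.4%. Found in neither were 92 of these 158 (58.2%) beside 47.3% of autosomal peaks. Below a score of 5 came 136 X peaks with a median width of 204 bp. Of these, 3 were found in both (2.21%, 0.457 to 6.31%, beside 2.96% of autosomal peaks) and 99 in neither (72.8%, beside 70.8%). The autosomal share found in both lay inside the X interval in each of these score ranges. The other kinds of support were not compared by a test within these ranges. Intervals cover counting error only, and the depth behind each list is unknown.

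Within quartiles of the genome-wide list, X peaks were found in both replicates more often than autosomal peaks in the best-scoring one, above 9.69, and the other quartiles did not pass. This quartile does not match scores, since its X peaks include the 31 that outscored every autosomal peak, all found in both. In the best quartile, 82 of 121 X peaks were found in both (67.8%, exact 95% interval 58.7 to 76.0%) against 207 of 399 autosomal peaks (51.9%, 46.9 to 56.9%), where the background over all chromosomes was 55.6% (Fisher's exact test, two-sided, adjusted p = 0.00955 over 4 quartiles). For scores between 5.77 and 9.69, both replicates held 10 of 116 X peaks (8.62%) against 12.3% of autosomal peaks and a background of 11.5%, which did not pass (Fisher's exact adjusted p = 0.65). Counted by presence in replicate 2, this quartile was 10.4 percentage points lower on X (-10.4, Fisher's exact p = 0.0309, unadjusted). The 2 lower quartiles had 3 of 104 and 1 of 74 X peaks in both replicates, against backgrounds of 3.62% and 2.09% (Fisher's exact adjusted p = 1 for both). The difference in the best quartile did not pass without the 31 strongest X peaks (56.7% of X peaks, Fisher's exact p = 0.417), a removal that lowers it by construction. It also did not pass when presence in replicate 2 was counted, whether or not replicate 1 held the peak. The difference was then 2.80 percentage points (Fisher's exact p = 0.572). With quartiles cut on the scores of X peaks it was smaller, in the same direction, and did not pass, at 9.75 points (Fisher's exact p = 0.0872). Whether X and the autosomes differed by more in one quartile than in another was not tested.

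**Figure D2:**
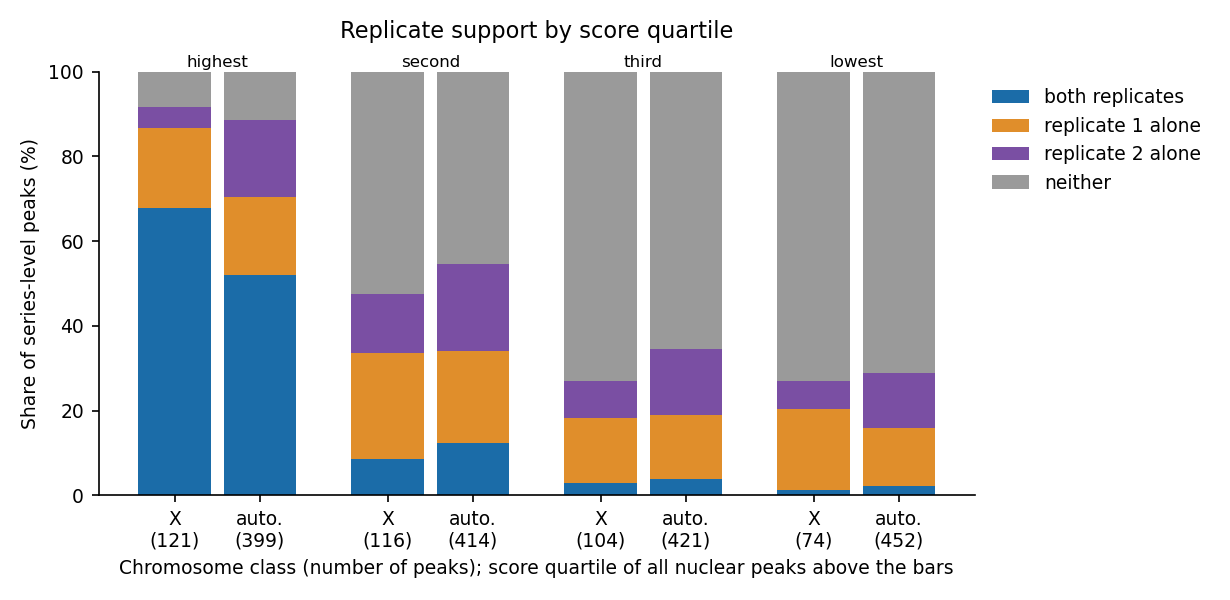
Share of series-level peaks found in both replicates, in replicate 1 alone, in replicate 2 alone or in neither (bars stacked to 100%), for X and autosomal peaks within each quartile of score over all nuclear peaks. In the highest quartile the blue share is 67.8% on X and 51.9% on the autosomes, and the purple share found in replicate 2 alone is smaller for X in each quartile.

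The support of X peaks by a single library was uneven. Replicate 1 held 178 of the 415 X peaks (42.9%, 38.1 to 47.8%) against 34.0% of autosomal peaks, where the background was 35.8% (Fisher's exact test, adjusted p = 0.00362 in a family of 4). Replicate 2 held 132 X peaks (31.8%, 27.3 to 36.5%) against 33.5% of autosomal peaks and a background of 33.2% (Fisher's exact adjusted p = 0.697). Among the 118 X peaks found in 1 replicate alone, 82 were in replicate 1 (69.5%, 60.3 to 77.6%). On the autosomes 290 of 571 such peaks were in replicate 1 (50.8%, Fisher's exact p = 0.000239, a comparison made after the counts were seen). By chromosome, the counts in replicate 1 alone and replicate 2 alone were 51 and 45 for I, 58 and 52 for II, 57 and 75 for III, 67 and 66 for IV and 57 and 43 for V. Peaks are not replicates and neighbours are not independent, so these p-values describe the 2 libraries only, and a difference between the libraries cannot be told apart from one between X and autosomes in the embryos.

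Below the very strongest X peaks, scores declined step by step. The 31 X peaks that outscored every autosomal peak (61.4 to 237) had medians of 1988 in replicate 1 (443 to 3233) and 1884 in replicate 2 (326 to 3100). Within them, the X peaks ranked 13 to 31 scored 61.4 to 180 and were 459 to 926 bp wide. The first of these, at 12362684 to 12363479, was given 180 in the series-level list and scores of 2170 (replicate 1) and 2317 (replicate 2). Further down, the X peak at 16681627 to 16682480 scored 167, with 3041 and 3090 in the replicates, and the X peak at 5429086 to 5429954 scored 148, with 3100 and 3016. Both of these scored close to or at 3100 in each replicate, a score shared by 8 X peaks of replicate 1 and 12 of replicate 2. In the series-level list they ranked 16 and 18 on X.

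Other peaks of these ranks lay along the whole of X. Scores above 140 were given to the X peaks at 1344710 to 1345311 (179, replicate scores 1843 and 1747), 16056016 to 16056941 (174, replicate scores 2735 and 1884) and 7181454 to 7182092 (149, replicate scores 1988 and 1203). The X peaks at 17181113 to 17181744 and 13514185 to 13514788 tied at 146, with replicate scores of 1312 and 1315 for the former and 1036 and 1261 for the latter. Scores of 122, 117, 105, 102 and 101.2 belonged to those at 16205710 to 16206328, 4395315 to 4395864, 17545204 to 17545905, 14813345 to 14813837 and 1909191 to 1909837, whose replicate 1 scores were 1305, 1184, 1055, 710 and 1303 and whose replicate 2 scores were 1412, 1008, 833, 519 and 891. The X peaks at 409796 to 410560 (89.3, replicate scores 1514 and 1045), 15736310 to 15736866 (86.3, replicate scores 878 and 594) and 1888342 to 1888855 (71.4, replicate scores 868 and 453) came below 100. Each of these peaks was met by 1 peak in each library.

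The 31 also held peaks with scores below 100 elsewhere on X. At 1322863 to 1323483 the series-level score was 63.2, beside 1374 in replicate 1 and 638 in replicate 2. The X peak at 16209450 to 16210057 scored 84.6, with 1356 and 555. The last of the group, at 10667735 to 10668193 and 459 bp wide, scored 61.4, 443 and 326, the lowest of the 31 in each of the 3 lists. Below it came the X peak at 1389275 to 1389731 (50.9, with 482 in replicate 1 and 199 in replicate 2), the X peak at 11605576 to 11606423 (43.1, with 821 and 511) and the X peak at 11924021 to 11924512 (42.8, with 555 and 394). The scores of X peaks ranked 32 to 45, named after their values were seen, thus fell from 50.9 to 30.4, inside the range of the strongest autosomal peaks (up to 60.1).

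The other 65 X peaks found in both replicates were a mixed set. Their series-level score had a median of 18.7 (1.76 to 50.9), and their replicate scores had medians of 243 in replicate 1 (56.0 to 1276) and 255 in replicate 2 (50.4 to 3100). Replicate scores of the 31 strongest followed each other closely (Spearman's rho 0.89 over 31 peaks), and those of the other 65 less so (rho 0.45). Over the 85 X peaks found in both and at most 1500 bp wide, rho was 0.75, and over the 233 such autosomal peaks it was 0.19, where the 85 include the 31 strongest and so span a wider range of scores. These correlations are across peaks of the same 2 libraries and are given as descriptions. A replicate peak that overlapped several X peaks counts for each of them. The X peaks at 9184902 to 9185788 and 9185840 to 9188699, for example, both carry 426 in replicate 1 and 3100 in replicate 2. Between the libraries, peak midpoints were shifted by a median of 31 bp at the 31 strongest, 41.5 bp at the 54 other X peaks of at most 1500 bp and 46 bp at the 233 autosomal peaks of that width. They were within 100 bp at 30 of 31, 40 of 54 and 158 of 233 peaks.

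**Figure D3:**
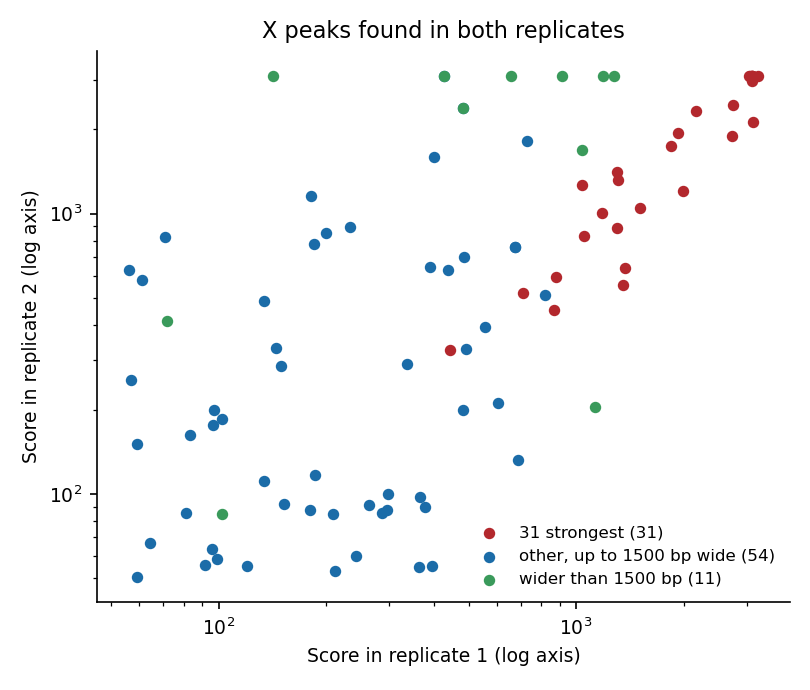
Score in replicate 2 against score in replicate 1 (both axes log) for the 96 X peaks found in both replicates, each point 1 peak. The 31 strongest (red) rise together from 443 and 326, 6 of the 11 broad peaks (green) sit at a replicate 2 score of 3100, and the 54 others (blue) scatter widely.

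A few X peaks were weak in the series-level list yet present in both libraries. One, at 1195188 to 1195540, had 1.76 as its series-level score, rank 412 of the 415 X peaks, with scores of 97.0 and 199 in replicates 1 and 2. Low series-level scores of 4.92 and 4.93 were also given to the X peaks at 14154241 to 14154631 and 3076865 to 3077119. The first of them had 56.9 in replicate 1 and 255 in replicate 2, and the second had 211 and 53.2, so the order was opposite in the libraries. The replicate 1 score of 211 was also that of the neighbouring X peak at 3077246 to 3077497. Another, at 11030930 to 11031566, scored 6.53, with 243 in replicate 1 and 60.2 in replicate 2.

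Other X peaks scored well but were missing from a library. In replicate 1 alone the highest-scoring X peak lay at 16929482 to 16929953, with a series-level score of 25.1 and 473 in replicate 1. Next came the X peaks at 1961289 to 1961674 (22.4, replicate 1 score 145), 9958582 to 9958857 (19.1, 151) and 949385 to 949940 (18.9, 319). Those at 11643748 to 11644154 and 10765983 to 10766475 scored 18.4 and 17.5. In replicate 2 alone the highest was the X peak at 2057810 to 2058321, with a series-level score of 31.8 and 897 in replicate 2. That at 2002727 to 2003578 scored 28.4 and reached 1318 in replicate 2, the highest replicate 2 score of the 36 peaks found there alone. Of the next 4 by series-level score, those at 11521930 to 11522333 (22.2) and 142978 to 143645 (17.7) scored 182 and 851 in replicate 2. The remaining 2, at 13511770 to 13512031 (15.3) and 12367558 to 12367722 (10.98), scored 50.5 and 50.8, close to the lowest replicate 2 score on X of 50.3.

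The 201 X peaks found in neither replicate were weak (median score 5.11) and narrow (median width 202 bp). The highest scored 15.9, at 785389 to 785689, followed by 15.4 at 2242808 to 2243142, 14.1 at 5085445 to 5085778 and 13.1 at 8155983 to 8156215. The next, at 442688 to 442959 and 8646303 to 8646485, scored 11.3 and 11.2. Within 1000 bp of a replicate peak lay 19 of the 201 (9.45%), and within 5000 bp 40 (19.9%). For the autosomal peaks found in neither, these shares were 13.6% and 23.3%. The median distance to the nearest replicate peak was 25.9 kb on X and 28.8 kb for the 831 such autosomal peaks.

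Some X peaks of the replicates had no counterpart in the series-level list, namely 25 of replicate 1 and 19 of replicate 2. They were weak, with median scores of 59.9 and 68.6 against 143 and 183 for all X peaks of those lists. The highest were the replicate 1 peaks at 4961231 to 4962709 (1479 bp, score 156) and 6741793 to 6742494 (125), and the replicate 2 peak at 1883955 to 1884382 (159). Only 2 of these sites were present in both libraries. One lay at 2056925 to 2057344 in replicate 1 (score 107) and at 2056917 to 2057322 in replicate 2 (157), 465 and 487 bp from a series-level peak. The other lay at 12276028 to 12276208 in replicate 1 (73.5) and at 12276021 to 12276210 in replicate 2 (142), with no series-level peak within 80.5 kb. Further replicate 1 peaks outside the list were those at 10756248 to 10756630 (80.4), 5995435 to 5996016 (78.1) and 5816238 to 5816614 (76.5), and further replicate 2 peaks those at 12502556 to 12502845 (127), 4030099 to 4030670 (110) and 15482023 to 15482220 (104).

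X peaks crowded towards the left end of the chromosome. The fullest window of 1 Mb, from 1070704 to 2070703, held 59 of the 415 X peaks (14.2%), and the fullest window of 2 Mb, from 109491 to 2109490, held 87 (21.0%). Such shares were not particular to X. The fullest windows of the autosomes held 11.4 to 20.8% (1 Mb) and 17.0 to 27.2% (2 Mb) of the peaks of their chromosome. The fullest 1 Mb windows of X in the other lists overlapped the stretch from 1070704 to 2070703. Replicate 1 had 34 peaks from 1093132 to 2093131, replicate 2 had 28 from 1195241 to 2195240, and the peaks found in both had 20 from 1195188 to 2195187. Those 20 were 20.8% of the X peaks found in both, where the fullest 1 Mb windows of the autosomes held 23.7 to 36.2% of such peaks. The 59 peaks scored 1.76 to 182 with a median of 6.73, beside a median of 6.44 for the 356 other X peaks, and 5 of the 31 strongest were among them. Found in both were 20 of the 59 (33.9%) and 76 of the 356 others (21.3%), given as counts with no test because the window was chosen for its number of peaks.

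Joining close peaks left most of this crowding in place. When peaks within 1000 bp were merged, the fullest 1 Mb window of X still held 51 merged peaks, while the fullest windows of I, II, III, IV and V held 28, 27, 30, 29 and 25. Before merging, the fullest 1 Mb windows held 48 peaks for I, 44 for II, 78 for III, 42 for IV and 43 for V. Leaving out runs of at least 10 peaks spaced by at most 5000 bp moved the fullest window of III. It then lay from 302575 to 1302574 and held 40 peaks. No run of that length lay in the fullest window of X, so its 59 could not change. The X window also held a stretch of mixed support. Singled out after their values were seen, 6 X peaks found in both replicates stood between 1322863 and 1437605. Starting at 1322863, 1344710, 1374898, 1379493, 1389275 and 1437037, they had series-level scores of 63.2, 179, 31.8, 36.2, 50.9 and 40.9. Between them lay X peaks not found in both, starting at 1325674, 1339031 and 1386933 (neither replicate) and 1376861 (replicate 1 alone).

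Over fixed segments of 1 Mb the pattern was the same. The segment from 1 to 2 Mb held 51 X peaks, 18 of them found in both replicates, and also the most X peaks of replicate 1 (27) and of replicate 2 (22). On III the segment from 7 to 8 Mb held more peaks, 69, of which 14 were found in both. Over the 17 full segments of X the median was 24 peaks, with 13 in the emptiest, from 6 to 7 Mb. The segment from 11 to 12 Mb came next in peaks found in both, with 12 of its 27. The segment from 5 to 6 Mb had 31 peaks, of which 3 were found in both, with 10 peaks of replicate 1 and 17 of replicate 2.

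**Figure D4:**
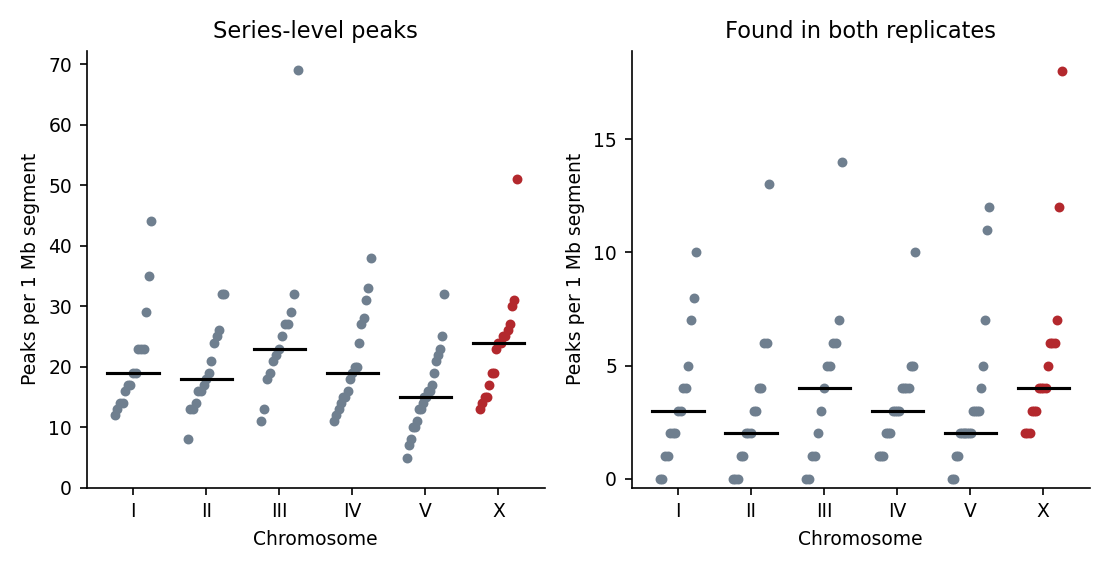
Peaks per full 1 Mb segment of each chromosome for the series-level list (left) and for peaks found in both replicates (right), each point 1 segment, sorted by value, with a bar at the median. X (red) has 1 segment with 51 peaks, 18 of them found in both, above a median of 24 and 4. The fullest segment of III has 69 peaks, 14 of them found in both.

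Distances between neighbours spanned from 45 bp to 322 kb. The median distance between neighbouring X peaks was 23.1 kb, and 50% of distances lay between 4.62 and 63.5 kb. Medians on the other chromosomes ran from 11.2 kb on III to 26.9 kb on V. Of the distances on X, 15.5% were at most 1000 bp, beside 21.7 to 30.2% on the autosomes. Among peaks found in both replicates the shares within 1000 bp were 8.42% on X and 13.8 to 36.96% on the autosomes. These shares are descriptions, and no test was made of them. The median distance was 108 kb between X peaks found in both and 449 kb between the 31 strongest.

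**Figure D5:**
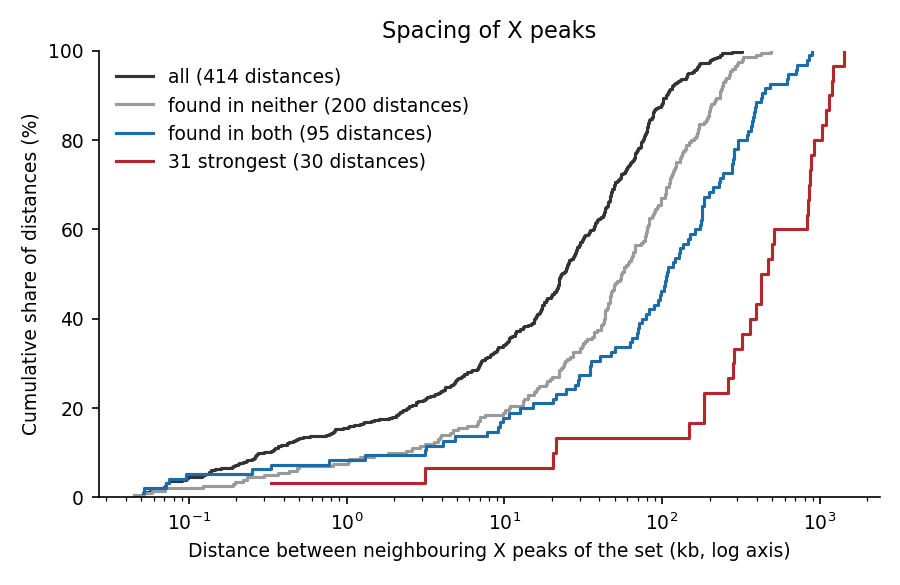
Cumulative share of the distances between neighbouring X peaks (kb, log axis) for all 415 peaks, those found in neither replicate, those found in both and the 31 strongest. Medians are 23.1, 55.4, 108 and 449 kb.

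The longest stretch of X without a series-level peak ran for 322 kb, between the peaks ending at 7501199 and starting at 7823087, and 1 replicate 1 peak and 0 replicate 2 peaks lay inside it. The next were 279 kb (3371579 to 3650516) and 241 kb (3130163 to 3371402), both with 0 peaks of either replicate. These last 2 stretches were parted by a single X peak that scored 6.66.

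Close neighbours occurred among both strong and weak X peaks. Of the distances between neighbouring X peaks, 26.3% were at most 5000 bp, beside 30.8 to 43.0% on the autosomes. Another X peak lay within 5 kb of 16 of the 31 strongest (51.6%). The same held for 28 of the 65 other X peaks found in both (43.1%) and 128 of the 319 remaining X peaks (40.1%). Within 10 kb the counts were 22 (71.0%), 37 (56.9%) and 162 (50.8%). Differences between these shares were not tested, and the neighbours of the 31 strongest include others of the 31. In 2 pairs, both neighbours were among the 31. The X peaks at 17544073 to 17544870 (score 192) and 17545204 to 17545905 (105) lay 333 bp apart, and those at 16205710 to 16206328 (122) and 16209450 to 16210057 (84.6) lay 3121 bp apart. The other neighbours within 5 kb were 17 weaker peaks with a median score of 5.83 (3.75 to 23.5), of which 2 were found in both replicates, 5 in replicate 1 alone, 3 in replicate 2 alone and 7 in neither.

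The longest runs of X peaks were mostly of low score. With peaks joined when at most 5000 bp apart, the 415 X peaks formed 306 groups, of which 243 were single peaks. The longest run had 11 peaks over 8.38 kb (7351545 to 7359925), with scores of 2.58 to 8.06, 3 replicate 1 peaks and 1 replicate 2 peak. A run of 10 peaks at 16929482 to 16938045 scored 3.01 to 25.1 and held 1 replicate 1 peak and 5 replicate 2 peaks. A run of 9 peaks at 5046065 to 5057116 scored 2.20 to 17.1. All 9 of its peaks were found in replicate 2 and 1 in replicate 1. The replicates differed over these runs, while both held all of the 31 strongest X peaks. Shorter runs could score higher. The 4 peaks at 16202119 to 16210057 had a median score of 48.6 (5.39 to 122), and 3 of them were found in both replicates.

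The 11 X peaks wider than 1500 bp were each found in both replicates, as were 51 of the 59 autosomal peaks of such width (86.4%), where the background over all broad peaks was 88.6%. They covered 21.8% of the 182 kb under X peaks, beside 24.98% of the bases under autosomal peaks. In series-level score they were moderate (median 19.8, 5.28 to 40.2), while 6 of them reached exactly 3100 in replicate 2, a value that recurred at 12 X peaks of replicate 2 and 8 of replicate 1. Broad peaks made up 11 of the 96 X peaks found in both (11.5%) and 51 of the 284 autosomal ones (18.0%), a difference that did not pass (Fisher's exact p = 0.153).

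Broad X peaks differed in how the libraries saw them. The widest, at 10361257 to 10369190 (7934 bp), had 5.28 as its series-level score. Replicate 1 called it as 3 peaks scoring 570, 389 and 1128, and replicate 2 as a single peak of 8024 bp scoring 205. The X peaks at 289828 to 295294 (5467 bp, series-level score 27.0) and 109491 to 114276 (4786 bp, 17.6) were 1 peak in each library, with replicate 1 scores of 660 and 1276 and a replicate 2 score of 3100 for both. At 14384670 to 14389685 (5016 bp, 20.7) replicate 1 had only 2 short peaks of 606 and 249 bp, scoring 142 and 110, where replicate 2 had 1 peak of 5096 bp scoring 3100.

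Next in width, the X peak at 15807477 to 15811162 (3686 bp, 22.9) scored 1188 in replicate 1 and 3100 in replicate 2, and that at 4025969 to 4029231 (3263 bp, 40.2) was 3 peaks in replicate 1, of which the best scored 915, and 1 of 3100 in replicate 2. That at 9185840 to 9188699 (2860 bp, 19.8) scored 426 and 3100. The narrower ones, at 11886405 to 11888182 (1778 bp, 19.4) and 11786257 to 11787843 (1587 bp, 21.7), scored 1036 and 483 in replicate 1 and 1683 and 2377 in replicate 2. Also among the 11 were the peaks at 2060287 to 2062032 (1746 bp, 6.33), with best scores of 102 and 84.5 in replicates 1 and 2, and 7077588 to 7079106 (1519 bp, 12.3), with 71.6 and 414. Of the 11, 4 were split into several peaks in replicate 1, and each was met by a single peak in replicate 2.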

How the data were processed

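Peak lists were analysed for the series as a whole and for 2 ChIP libraries. Per the file headers, coordinates are WormBase WS220. The deposited files name as their source MACS, so peaks were called with MACS for each replicate and MACS v2 for the series-level list. BWA and ce10 are named in the submitters' processing notes. The deposited score is the authors' own, and its meaning, the control, threshold, depth and any pooling are not given in the sources used here. The labels do not tie the replicates to separate cultures, and their spread may be technical.

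Computation used Python 3.11.15, numpy 2.4.6, pandas 2.3.3, scipy 1.17.1 and matplotlib 3.10.9. The 2 mitochondrial peaks were left out. Overlap needed at least 1 bp, and a replicate peak that overlapped several series-level peaks counted for each. Shares were compared with two-sided Fisher's exact tests and exact (Clopper-Pearson) 95% intervals, at a threshold of 0.05, with Benjamini-Hochberg adjustment within 4 quartiles and within 4 kinds of support. Windows started at any peak and counted peaks by midpoint. Functions were tested on simulated lists. Members, lists and tests were chosen with earlier results of these data known. Named X peaks are ranks 13 to 31, the 6 highest of each kind of partial support, the 6 lowest found in both, the 11 widest, the 6 highest of each replicate outside the series-level list and the 3 longest distances. No genome of the build was used, so a planned motif count was not run.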

Additional observations from a re-analysis of the deposited data

Results flagged for a closer look

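Among peaks found in 1 replicate alone, the share found in replicate 1 was 18.7 percentage points higher on X (82 of 118) than on the autosomes (290 of 571; Fisher's exact p = 0.000239), so the contrast between the libraries differed between the chromosome classes. Without runs of at least 10 peaks it was 12.1 points higher (79 of 110 against 280 of 469, Fisher's exact p = 0.0217). The part of library quality or depth in this was not tested.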

How the results depend on the processing

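Results were the same under 34 of 56 alternatives. This meant the same direction and call, or a count to within 1.5 times. For the median distance it meant a change below 13978 bp, the standard deviation of the medians of the 2 replicate lists. Comparisons that passed in neither setting count as the same whatever the size of the value. In the quartile next to the lowest, -0.916 points and -7.70 points (without replicate 1) were so counted. Leaving out the 31 strongest X peaks or dense runs, and all alternatives on peaks found in 1 replicate, were chosen after seeing the data. The excess of X over autosomal peaks found in both replicates (6.29 percentage points) was 6.92 in the better-scoring 50% (Fisher's exact p = 0.0506) and 0.0825 without the 31 strongest (p = 1, Fisher's exact), which lowers it by construction. With 1 replicate left out it ran from -1.70 (without replicate 1) to 8.85. In the best quartile (15.9 points) it was 9.75 with quartiles of X peaks (Fisher's exact p = 0.0872) and 4.79 without the 31 strongest, and 2.80 to 16.4 with a replicate left out. The next quartile gave 1.93 under 50% reciprocal overlap, against -3.70, and -10.4 to -0.437 with a replicate left out, where without replicate 1 the deficit of X passed unadjusted (Fisher's exact p = 0.0309). The lowest quartile gave 0.0239 under reciprocal overlap, against -0.861, and -7.16 to 4.34. The cause was not tested. The median distance of 23143 bp was 47305 bp in the better-scoring 50%, 107744 bp for peaks of both replicates and 43423 to 63191 bp in the replicate lists, which hold fewer peaks. For the same reason the fullest 1 Mb window held 34, 20 and 28 to 34 peaks, and the fullest 2 Mb window 51, 26 and 35 to 47. No paired analysis was possible because the inputs had no analysed lists to pair with the ChIP libraries. The unknown depth limits every statement on missing peaks.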
